A study of Mus musculus with 36 samples.

Results

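The genes described here are 9 regulators of the haemangioblast and of early endothelium: the transcription factors Etsrp71 (now named Etv2), Tal1, Lmo2, Gata2, Ets1 and Hhex, the vascular endothelial growth factor (VEGF) receptors Kdr and Flt1, and the endothelial junction protein Cdh5. Every probe of the deposited bead array table whose gene symbol matched a member was taken, which gave 14 of 45281 probes and 9 of the 30869 genes in the table. The study profiled pieces dissected from wild-type, outbred MF1 mouse embryos along the route from gastrulation to the end of axis elongation, to compare neuromesodermal, lateral/paraxial mesodermal and notochord progenitor regions. There were 36 arrays over 16 regions, with 3 arrays for E7.5 A, E8.5 CLE, E8.5 NSB and E11.5 CNH and 2 for each other region. Each array held a pool of 6 to 74 pieces of a single kind, and no piece was sorted for a cell type.

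At E7.5 (headfold stage) the regions were A (anterior), P (posterior) and PP (posterior and proximal). The E8.5 embryos, at an early somite stage, gave RN (rostral node), NSB (border of node and streak), CLE (lateral epiblast, caudal) and 2 pieces of primitive streak, St1 at its rostral and St5 at its caudal end. According to the paper, the CLE pieces were freed of the endoderm and presomitic mesoderm beneath them. From E9.5 to E13.5 the chordoneural hinge of the tail (CNH) was taken, and at E9.5, E10.5 and E11.5 also the tissue posterior to it (P-CNH). All embryos were untreated and of the same strain, so the groups were defined by age and region, apart from batch.

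Blood and endothelium of the early embryo arise in close association from mesoderm that leaves the posterior primitive streak, much of it bound for the extraembryonic yolk sac and allantois. Etv2 acts transiently at the head of this programme, upstream of Tal1 and with Gata2 and the bridging protein Lmo2, while Kdr and Flt1 receive the VEGF signal. Ets1, Hhex and Cdh5 are linked to the endothelium that follows, although Hhex also marks anterior endoderm.

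Levels are given as log2 intensity after background correction and quantile normalisation, a scale on which the undetected Kdr probes lay between 4.48 and 5.94. A probe counted as detected on an array when its detection p-value was below 0.01, and 21712 probes detected on at least 1 array were tested. Between 10814 (E13.5 CNH replicate 2) and 16256 (E8.5 St1 replicate 2) probes were detected per array, and with 2 or 3 arrays per region the number of arrays limits the precision of every value. Differences are log2 differences from a limma model of region and batch, with their standard error (SE), and were called when the p-value adjusted over all tested probes was at most 0.05 and the fold was at least 1.5. Where a group was detected on only some of its arrays, its mean includes values near background, so the size of the difference is approximate. Probes differ in response, so the sum over a list and its brightest probe describe signal on the array and not the relative abundance of genes.

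E7.5 A replicate 3, the only A array in batch 3, differed from the other A arrays. Across probes, it correlated with the other A arrays at r = 0.888 and 0.928, against 0.981 between replicates 1 and 2, and its closest array of another region was PP replicate 2 (r = 0.949). Such values were not particular to it. NSB replicate 3, also alone in batch 3, correlated with its own region at 0.921 and 0.923 and was closest to CLE replicate 2 (0.959), and the lowest values within a region were 0.877 for CLE, 0.859 for E11.5 P-CNH and 0.858 for E13.5 CNH. Otx2, an anterior marker, was at 12.70, 12.51 and 11.76 in A, 10.04 and 9.86 in P, and 6.48 and 6.07 in PP, so replicate 3 kept an anterior level of it. Hesx1, another anterior marker, was at 5.19, 5.08 and 8.09 in A. The summed intensity of 7 visceral endoderm markers was 2100 and 2160 in A replicates 1 and 2 and 10900 in replicate 3, where Ttr had the brightest probe. A difference of this array and of its batch cannot be told apart. The E7.5 results are therefore given with and without this array.

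Of the 14 member probes, 9 passed the detection filter, covering 8 of the 9 genes. Both Kdr probes were undetected on all 36 arrays. Kdr ILMN_2665788 lay between 4.53 and 5.94, with a lowest detection p-value of 0.0459, and ILMN_2572649 lay between 4.48 and 5.19. These probes give no information on the level of Kdr, which is therefore not reported further. A second probe for Flt1 and a pair of further probes for Ets1 were also undetected on every array, so Flt1 is read from ILMN_1227926 and Ets1 from ILMN_3157483. Cdh5 had 2 usable probes. A member near background in most regions passes only through a region where it is high, so no test is made over the passing members as a group.

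Promoter windows of 250 bases before the start site were available from RefSeq (build GRCm38.p6) for 6 of the 9 members, with none for Ets1, Lmo2 and Cdh5. They are shown for 4 of the members that shared high levels in the posterior regions. Capitals mark GGAA and its reverse complement TTCC, the core letters recognised by ETS factors such as Etv2 and Ets1, and AGATAA or TTATCT, letters recognised by GATA factors. Tal1 and Gata2 have 2 windows each, of which the first listed is shown. Both strands were searched and no marked motif overlaps another. The windows are Etv2 at chr7:30635853-30636102 (minus strand), Tal1 at chr4:115056176-115056425 (plus strand), Gata2 at chr6:88193641-88193890 (plus strand) and Flt1 at chr5:147726012-147726261 (minus strand).
Etv2: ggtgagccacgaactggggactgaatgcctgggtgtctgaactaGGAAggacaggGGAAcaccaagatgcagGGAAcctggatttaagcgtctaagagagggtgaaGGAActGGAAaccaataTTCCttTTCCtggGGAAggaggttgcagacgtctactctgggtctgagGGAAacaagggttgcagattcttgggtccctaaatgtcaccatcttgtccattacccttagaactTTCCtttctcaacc
Tal1: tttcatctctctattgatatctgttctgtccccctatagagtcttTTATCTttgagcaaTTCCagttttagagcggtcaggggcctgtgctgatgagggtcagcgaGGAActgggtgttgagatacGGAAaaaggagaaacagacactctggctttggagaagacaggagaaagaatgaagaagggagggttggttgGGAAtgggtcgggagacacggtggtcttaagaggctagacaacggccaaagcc
Gata2: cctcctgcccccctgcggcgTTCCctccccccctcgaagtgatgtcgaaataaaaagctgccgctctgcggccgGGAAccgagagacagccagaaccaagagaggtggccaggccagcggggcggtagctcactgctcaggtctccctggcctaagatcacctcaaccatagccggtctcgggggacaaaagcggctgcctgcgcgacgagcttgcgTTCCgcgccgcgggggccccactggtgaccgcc
Flt1: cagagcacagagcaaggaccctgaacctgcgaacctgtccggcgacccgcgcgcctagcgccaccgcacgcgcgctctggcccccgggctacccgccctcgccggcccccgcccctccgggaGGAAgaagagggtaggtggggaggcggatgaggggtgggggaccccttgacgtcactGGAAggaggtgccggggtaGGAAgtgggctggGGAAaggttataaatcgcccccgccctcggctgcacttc
The Etv2 window held 10 ETS cores, and 0.192% of all 32851 promoter windows held at least as many. The Tal1 and Flt1 windows shown held 4 each, and 33.4% of windows held 4 or more. The Gata2 window shown held 3, and 54.7% held 3 or more. The other windows of Tal1 and Gata2 held 3 and 1. GGAA in either orientation was present in 93.4% of windows and AGATAA in 9.99%. The Tal1 window shown carried 1 AGATAA match, and its other window 0. A match describes letters in a window and does not show that a factor binds there.

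Across the 16 regions the members did not share a single pattern. Etsrp71, the ETS factor at the head of the programme, was detected on all 36 arrays. Its highest levels were in E8.5 St5, at 11.73 and 11.76, followed by E7.5 PP at 11.56 and 10.99. Levels in the next 13 regions ran from a mean of 10.57 ± 0.23 (SD, n = 3) in E7.5 A down to 9.00 ± 0.15 (n = 2) in RN, each overlapping its neighbour in the order. E13.5 CNH was lowest, at 7.81 and 8.51, and did not overlap RN. The Etsrp71 signal thus covered a range of 3.95 while remaining well above background everywhere. It was read from 1 probe, ILMN_2678641, whose specificity was not checked.

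Tal1, a basic helix-loop-helix factor needed for blood, was by contrast near background in most of the series. It was detected on 6 arrays in 4 regions. These were both E7.5 PP arrays (7.33 and 7.00), both St5 arrays (6.92 and 7.05), A replicate 3 (7.32) and P replicate 2 (5.89). PP and St5 overlapped each other. In the tail and in the other E8.5 regions Tal1 lay between 4.43 and 5.68 with no detected array.

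Gata2, a zinc-finger factor of haematopoietic and endothelial progenitors, was detected on 14 arrays in 8 regions. St5 was highest at 9.71 and 9.62 and did not overlap E7.5 PP, the next region, at 8.71 and 8.39. The A arrays were spread widely, at 7.13, 5.70 and 8.76, the highest being replicate 3. CLE was also spread, at 5.28, 7.62 and 6.33. In the tail the probe was detected only on E11.5 P-CNH replicate 1 (6.78) and E13.5 CNH replicate 1 (6.69).

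Lmo2, a LIM-only protein that bridges Tal1 and GATA factors, followed a different course. It was detected on all 36 arrays over a range of 6.75, against 3.95 for Etsrp71, the other member detected on every array. It was lowest in E7.5 A (7.78, 7.05 and 8.88), where replicate 3 was again the highest, and reached 13.81 and 13.23 in E11.5 P-CNH. Every CNH and P-CNH array was above every E7.5 and E8.5 array. The tail means ran from 12.02 ± 0.00 (n = 2) in E9.5 CNH to 13.52 ± 0.41 (n = 2) in E11.5 P-CNH, and E10.5 to E12.5 regions mostly overlapped. RN, at 9.32 and 8.92, was the lowest E8.5 region and overlapped no other.

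Ets1, an ETS factor of endothelium and other mesoderm derivatives, was detected in 15 of the 16 regions. It was at 9.69 and 10.06 in St5, and the tail regions reached similar levels, with 10.18 and 9.36 in E9.5 P-CNH. The E7.5 order was PP (9.22 and 8.99), P (8.23 and 8.53) and A (7.58, 7.77 and 7.41), with no overlap between these regions. The other E8.5 regions were low. RN was at 6.54 and 6.98, while NSB (6.06, 6.13 and 6.15), CLE (6.72, 5.84 and 5.37, undetected) and St1 (5.76 and 5.77) followed and overlapped in turn.

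Hhex, a homeobox factor of early endothelium and of anterior endoderm, was detected on 34 arrays. It was highest in E7.5 A, at 8.29, 8.17 and 9.19, and in St5, at 8.18 and 8.34, and these regions overlapped. E7.5 PP came next at 7.95 and 7.63, without overlap. The remaining regions lay between 5.05 and 7.42 and mostly overlapped their neighbours.

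Flt1, a VEGF receptor that also acts as a trap for the ligand, was detected on 21 arrays in 11 regions. St5 was highest at 8.89 and 9.06, followed without overlap by E7.5 PP (8.67 and 8.02) and P (8.24 and 8.01), which overlapped. Within some regions and stages Flt1 also differed by batch. NSB was at 6.88 and 7.26 in batch 1 but at 4.60, undetected, in batch 3, and CLE, all in batches 2 and 3, was undetected at 5.13, 4.60 and 4.81. E10.5 CNH, in batch 1, was at 7.12 and 7.49, while E9.5 and E11.5 CNH, in the other batches, were undetected. For CNH before E12.5 stage and batch cannot be told apart, and for NSB the stage is the same. The 7 E7.5 arrays, of batches 2 and 3, lay between 6.94 and 8.67, and E13.5 CNH replicate 1, of batch 2, at 7.83.

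Cdh5 (VE-cadherin), the adhesion molecule of endothelial junctions, was detected on 9 arrays in 6 regions with probe ILMN_2771550 and on 4 arrays in 3 regions with ILMN_2866951. The former was at 7.25 and 7.67 in St5, 6.84 and 7.22 in E10.5 CNH, and 8.38 and 6.78 in E13.5 CNH, where the second array was undetected. All E7.5 arrays and all E8.5 arrays other than St5 were undetected, between 4.47 and 5.75. Cdh5 was thus undetected at E7.5, where Flt1, Gata2 and Ets1 were detected in PP.

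**Figure D1:**
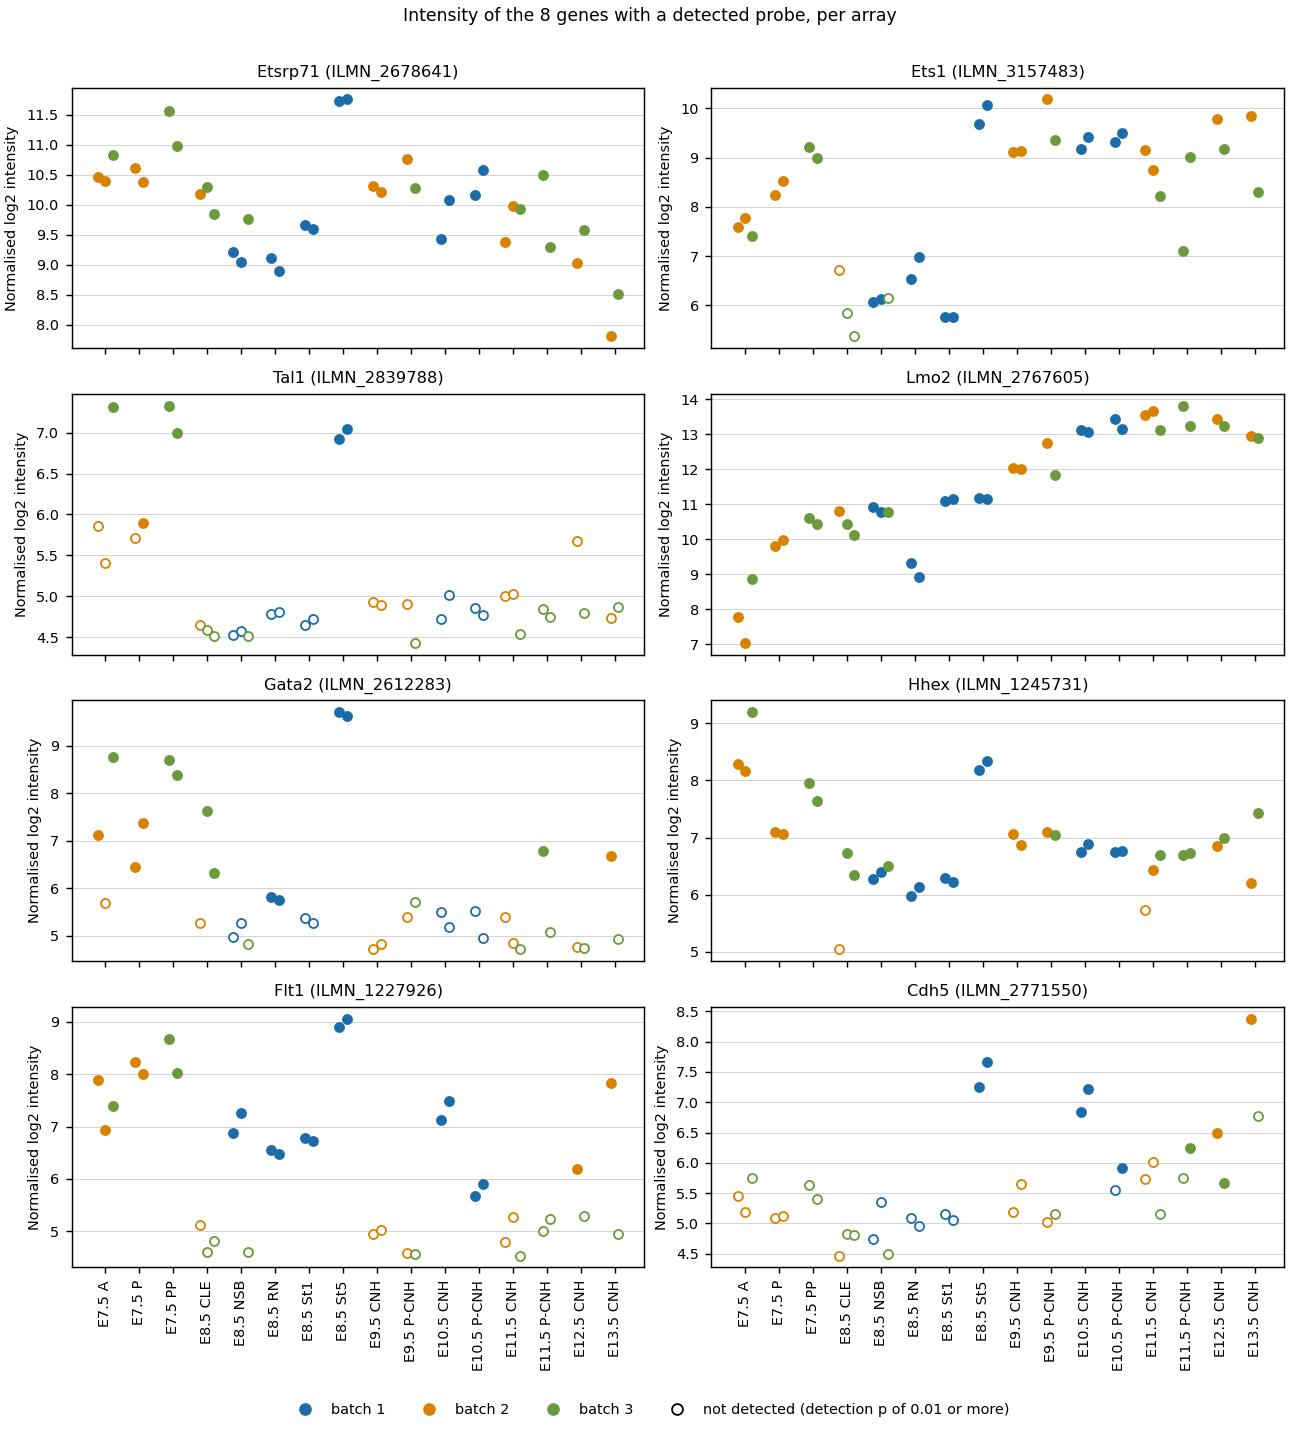
Log2 intensity of 8 members on each of the 36 arrays, by region in order of stage, coloured by batch, with open points where the probe was not detected. St5 has the highest mean for Etsrp71, Ets1, Gata2 and Flt1, while Lmo2 is highest in the tail and lowest in E7.5 A.

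The first comparison asked how the caudal end of the streak, which holds progenitors of lateral mesoderm, differs from the rest of the E8.5 progenitor region. In St5, 7 of the 9 members were higher than the mean of RN, NSB, CLE and St1, and none was lower. The probes called higher were 8 of the 14, where 2.73% of all tested probes were called higher. The members were chosen with earlier results of these data known. On these arrays the paper already reports Cdh5, Flt1, Hhex, Etsrp71 and Ets1 as raised in St5. This count and those against single E8.5 regions are therefore descriptions and not independent tests. In pooled tissue such as this, more cells of a type and more RNA per cell cannot be told apart.

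Among the transcription factors, Etsrp71 was at 11.73 and 11.76 in St5 and between 8.90 and 10.30 elsewhere at E8.5, a difference of 2.42 (SE 0.29, adjusted p = 5.92e-06). Ets1 differed by 3.81 (SE 0.34, adjusted p = 8.53e-08), with the St5 arrays above all 10 others. Gata2 differed by 3.89 (SE 0.63, adjusted p = 0.000196) and again did not overlap. Tal1 passed detection in each St5 array and in 0 of the other 10, and was at least 2.11-fold higher (adjusted p = 6.02e-05). This bound compares the mean of the bright group with, for each array of the other, the higher of the lowest intensity among its detected probes and the probe's own value. Hhex, at 8.18 and 8.34 against 5.05 to 6.73, differed by 2.06 (SE 0.26, adjusted p = 8.62e-06).

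Lmo2 was the exception among the factors. It was at 11.17 and 11.16 in St5 and at 11.10 and 11.16 in St1, which overlapped, and it differed by 0.77 from the remaining regions on average (SE 0.34, adjusted p = 0.319). Among the 12 arrays of batch 1 alone, which hold St5, RN, St1 and NSB replicates 1 and 2 but no CLE, the difference was 0.80 (adjusted p = 0.000352) and was called, as were 2966 of the 21712 tested probes. The 95% confidence interval of the difference from St1 ran from -0.77 to 0.84.

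Of the receptors and junction proteins, Flt1 was at 8.89 and 9.06 in St5, against 4.60 to 7.26 elsewhere, and differed by 2.12 (SE 0.40, adjusted p = 0.00102). Cdh5 ILMN_2771550 passed detection in each St5 array and in no other E8.5 array, and was at least 2.94-fold higher (adjusted p = 2.78e-05). Its other probe, at 5.97 and 6.41 in St5, was at least 1.22-fold higher (adjusted p = 0.000115).

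Taken region by region, 9 of the 14 member probes were higher in St5 against RN, where 2.46% of all tested probes were. The same held for 8 against NSB (2.12% of all tested probes) and 8 against St1 (1.93%), Lmo2 being the exception in both. Against CLE there were 6, with 1.08% of all tested probes called higher. Gata2 (2.81, SE 1.10, adjusted p = 0.368) and Flt1, undetected in CLE (adjusted p = 0.284), were not called there, and CLE shares no batch with St5. These outcomes depended on the setting, since Gata2 was called in 3 and Flt1 in 5 of 10 alternatives. Leaving out St5 replicate 1 left 3 calls against CLE and leaving out replicate 2 left 1, among 195 and 162 over all tested probes. Lmo2 was 2.04 higher in St5 than in RN (SE 0.39, adjusted p = 0.00102), the largest of its 4 differences at E8.5. Ets1 was at least 10-fold higher than in CLE (adjusted p = 0.000278). Gata2, undetected in NSB and St1, was at least 13.6-fold and 16.6-fold higher in St5 than in these regions.

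**Figure D2:**
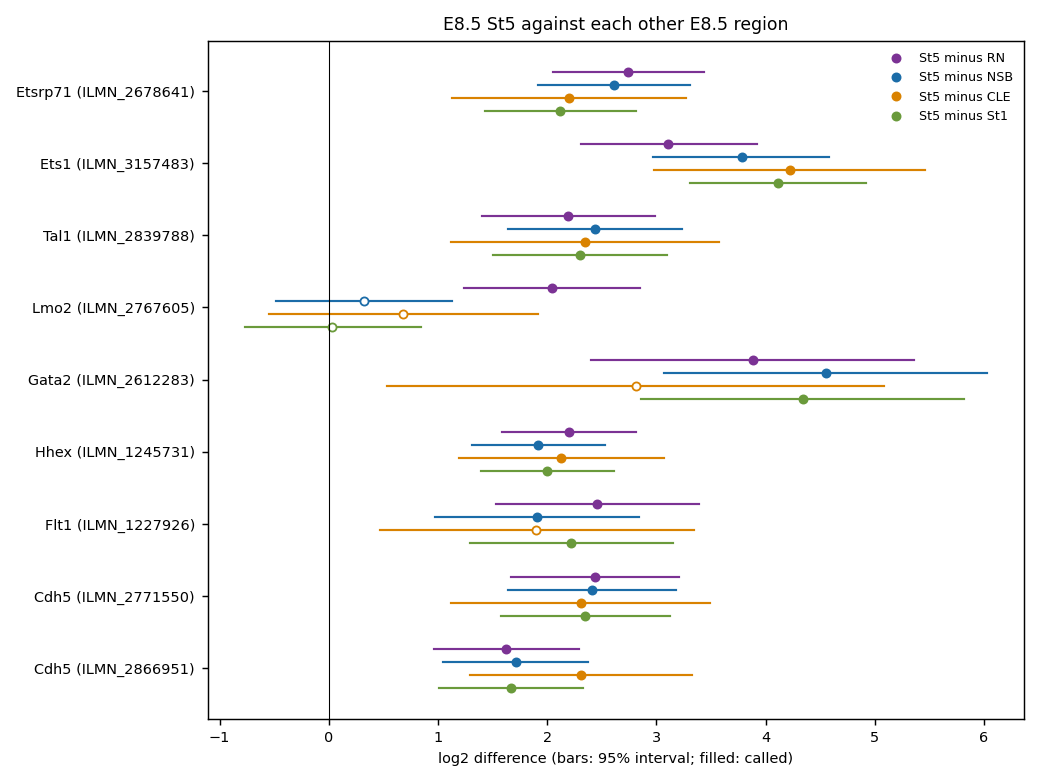
Log2 difference of each member probe between St5 and each of RN, NSB, CLE and St1, with 95% confidence intervals, filled where called. All intervals lie above 0 except those of Lmo2 against NSB, CLE and St1.

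Other genes of the same programme were examined as lists. Of 8 tested endothelial transcription factors, 4 were higher in St5, with a list median of 0.61: Sox7 (at least 5.68-fold, adjusted p = 6.44e-06), Sox18 (2.78, SE 0.33, adjusted p = 4.67e-06), Fli1 and Elk3. Erg was detected on no array of the series. Against RN alone Foxc2 was lower in St5 (-2.36, SE 0.59) and 3 factors were higher. Against NSB alone Foxc1 was lower (-1.82, SE 0.51) and 4 were higher. Endothelial surface and junction genes were higher for 9 of 16, with a median of 1.16, among them Plvap, of fenestral diaphragms (2.70, SE 0.38, adjusted p = 4.27e-05), the angiopoietin receptor Tek (adjusted p = 2.69e-05), detected on 1 of the other 10 arrays, and the TGF-beta co-receptor Eng (at least 2.2-fold, adjusted p = 1.23e-05). Of the 16 surface genes, 7 were higher and 1 lower against RN alone, and 9 were higher and 1 lower against St1 alone. Of 6 VEGF ligands and other receptors, Nrp1, a VEGF co-receptor (2.50, SE 0.30, adjusted p = 5.7e-06), and Vegfa (1.35, SE 0.35, adjusted p = 0.0187) were higher, while Pgf and Flt4 were undetected throughout.

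Of 10 haematopoietic factors and partners of Tal1 and Lmo2, 6 could be tested. In limma 0 of these were called, with 0 at an unadjusted p under 0.05 and a median of 0.04. Gata1, Runx1, Cbfa2t3 and Gfi1b were detected on no array, and the broadly expressed cofactor Ldb1 had the brightest probe of the list. Blood markers, mainly globins, also gave 0 of 6 in limma, with 0 at an unadjusted p under 0.05 and a median of -0.21. Their summed intensity was 2810 and 911 in St5, within the range of the other E8.5 arrays (194 to 9100), with Hbb-b1 the brightest in St5. No macrophage marker was detected on any array from E7.5 to E10.5. The mean over the regions joins unlike differences of the blood markers. Against RN 2 of 6 were lower in St5, Hbb-bh1 (-3.04, SE 0.76) and Hba-x (-2.81, SE 0.69), with a list median of -1.71. Against CLE the median was 1.39, with 0 calls in limma and 2 markers at an unadjusted p under 0.05.

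Markers of other tissues also moved with St5. Lateral and extraembryonic mesoderm markers were higher for 8 of 9 (median 4.02), among them Tbx4 (5.36, SE 0.24), detected on 6 of the other 10 arrays, Isl1, detected on 1, and Tbx3, detected on 3, and Msx2 was undetected throughout. Their summed intensity was 20000 and 22300 in St5 against 1440 to 9590 on the other E8.5 arrays, with Msx1 the brightest. Of the notochord markers 2 of 5 were lower (median -1.34), of definitive endoderm 1 was higher and 1 lower of 6 (median -0.56), and in limma 0 of 7 visceral endoderm (median 0.59) and 0 of 5 surface ectoderm markers (median 0.26) were called, with 3 and 1 at an unadjusted p under 0.05. Against RN and against NSB 4 of 5 notochord markers were lower (medians -3.53 and -3.66). In limma 0 were called against CLE (0.88) or St1 (-0.40). Definitive endoderm gave 3 of 6 lower against RN and against NSB (medians -1.19 and -1.18). It gave 1 lower against St1 (-0.30) and 1 higher against CLE (1.43). The part of these tissues in the levels of the members was not tested.

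The headfold regions asked where, about a day earlier, the programme was already present. Lmo2 and Ets1 were higher in PP than in A, and Lmo2 also in P than in A, while Hhex was lower in both posterior regions than in A. No member was called between PP and P with all arrays. Without A replicate 3, Tal1 and Ets1 also separated PP from P. The paper, which corrected for batch in another way, lists Etsrp71 and Ets1 among the genes raised in both PP and St5. The comparisons share arrays, and each is given by its own values.

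Between PP and A, Lmo2 was at 10.61 and 10.43 against 7.78, 7.05 and 8.88, a difference of 2.67 (SE 0.38, adjusted p = 4.69e-05). Ets1 was at 9.22 and 8.99 against 7.58, 7.77 and 7.41, a difference of 2.08 (SE 0.38, adjusted p = 0.000876). Neither overlapped. These were the 2 members called higher, where 3.14% of all tested probes were. Hhex, at 7.95 and 7.63 against 8.29, 8.17 and 9.19, was the 1 member called lower (-1.28, SE 0.29, adjusted p = 0.00642), where 3.01% of all tested probes were. Its call was lost without PP replicate 2 (-1.12), without the batch term, with the BeadChip as a block, with a replicate block beside batch and within batch 3.

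Leaving out A replicate 3 raised the number of calls between PP and A from 3 to 5. Tal1, at 7.33 and 7.00 in PP and undetected on the remaining A arrays, was then at least 2.05-fold higher (adjusted p = 2.67e-05), while with all arrays it differed by 0.94 (adjusted p = 0.179). Over all tested probes 6.31% were then called, against 6.15% with all arrays. Flt1 went from 1.42 (adjusted p = 0.0595) to 1.82 (adjusted p = 0.0342) and was also called in 6 of 11 alternatives that kept the array, while Lmo2 went from 2.67 to 3.55. Ets1 (2.39) and Hhex (-1.17, adjusted p = 0.0472) kept their calls. Gata2 went from 1.03 to 2.08 and was not called either way (adjusted p = 0.517 and 0.106). A replicate 3 is the only A array in the batch of PP, so without it PP and A are compared across batches. Within that batch, PP against this array alone gave 0 calls in limma for the members and 0 over all 21712 tested probes, with Tal1 at -0.16 and Gata2 at -0.20.

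Between P and A, Lmo2 was at 9.80 and 9.99 against 7.78, 7.05 and 8.88, and was the 1 member called higher (1.96, SE 0.36, adjusted p = 0.00183), where 1.52% of all tested probes were. Hhex, at 7.10 and 7.06, was the 1 called lower (-1.22, SE 0.27, adjusted p = 0.0125), where 1.21% of all tested probes were. Without A replicate 3 the differences were 2.48 for Lmo2 (adjusted p = 1.01e-06) and -1.15 for Hhex (adjusted p = 0.0433). The call of Hhex was lost when either P array was left out and within batch 2.

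Between PP and P, limma called 0 member probes, with 2 at an unadjusted p under 0.05, where 0.792% of all tested probes were called in either direction. Ets1 differed by 1.55 (SE 0.44, adjusted p = 0.121) and Tal1 by 1.33 (SE 0.44, adjusted p = 0.217), and the arrays of PP and P did not overlap for either. PP and P lie in different batches, joined in the model by A and other regions. Without A replicate 3 both were called, Tal1 at 1.72 (SE 0.25, adjusted p = 0.000362) and Ets1 at 1.69 (SE 0.44, adjusted p = 0.0475), and 2.29% of all tested probes were. Lmo2 was then at 1.08 (adjusted p = 0.0518) and Gata2 at 1.59 (adjusted p = 0.329). Hhex gave -0.06 in the model, although its means were 7.79 in PP and 7.08 in P without overlap, so its sign rests on the batch term.

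**Figure D3:**
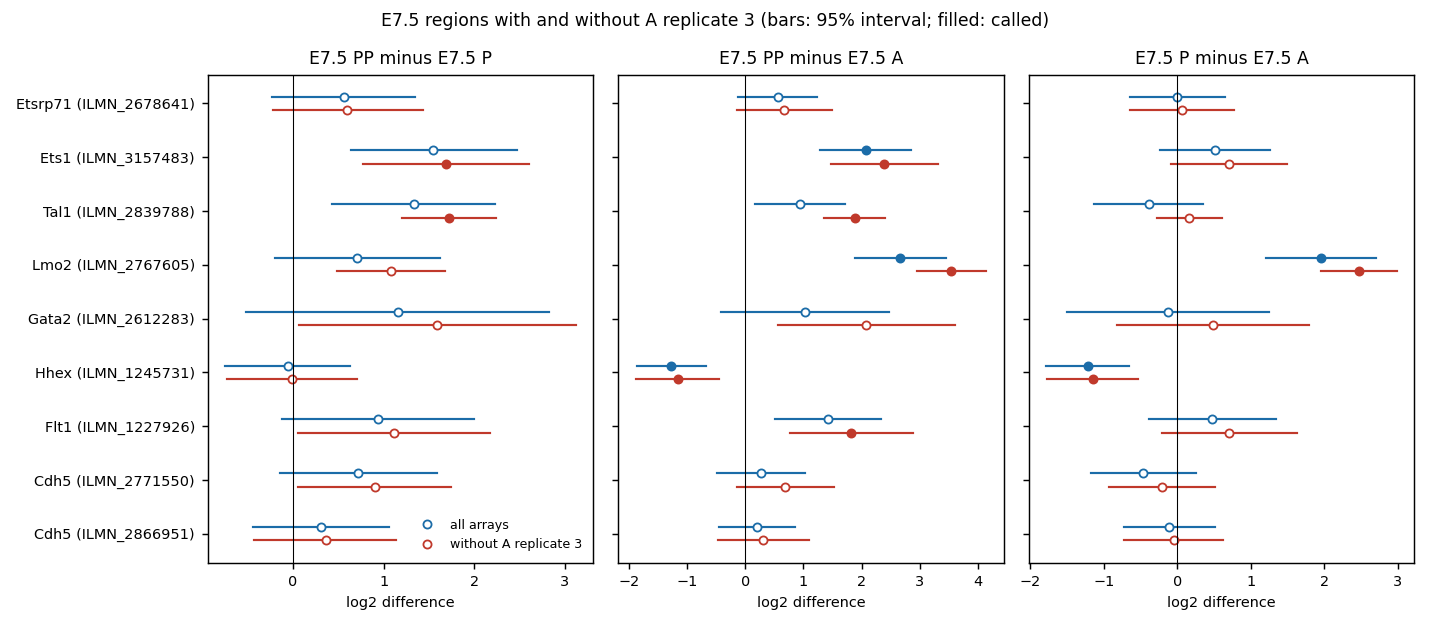
Log2 differences between the E7.5 regions for each member probe with 95% confidence intervals, with all arrays and without A replicate 3, filled where called. The Tal1 estimate between PP and A moves up from 0.94 when this array is left out, with both remaining A arrays undetected.

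Mesodermal and endodermal markers moved with these differences. Between PP and A, 8 of 9 lateral and extraembryonic mesoderm markers were higher (median 2.56), with Mixl1 at least 16.7-fold and Tbx3 at least 8.85-fold higher and Msx1 4.25 higher (SE 0.65). Their summed intensity was 11200 and 10200 in PP, 3650 and 3350 in P, and 1250, 1230 and 2030 in A. Visceral endoderm markers were higher for 5 of 7 in PP than in A (median 2.54), including Apob (3.30, SE 0.41), and for 2 of 7 in PP than in P, Rbp4 (at least 12.4-fold) and Afp (at least 4.62-fold). Their summed intensity was 37700 and 18000 in PP and 10800 and 6070 in P. Cer1, of anterior endoderm, was at least 7.2-fold lower in PP than in A (adjusted p = 2.99e-10). Of the notochord markers 1 was higher and 2 lower of 5 in PP than in A, and 1 of 5 surface ectoderm markers was higher. Between PP and P, 2 of 9 lateral and extraembryonic mesoderm markers were higher (median 1.45) and 1 of 6 definitive endoderm markers was lower. Between P and A, 4 of 9 lateral and extraembryonic mesoderm markers were higher (median 1.25), and 1 of 7 visceral endoderm markers was, Apob (2.14, SE 0.39), with 4 at an unadjusted p under 0.05. Of 5 notochord markers 1 was higher and 1 lower between P and A, and 1 of 6 definitive endoderm markers was lower. The part of these tissues in the members' levels was not tested.

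The endothelial lists gave few calls at E7.5. Between PP and P, limma called 0 of 8 endothelial factors and 0 of 16 surface genes, with 4 and 0 at an unadjusted p under 0.05. Between PP and A, 2 of 8 factors were higher, with Elk3 at 1.29 (SE 0.23). Of 16 surface genes 2 were higher, Robo4, a guidance receptor of endothelium (2.47, SE 0.38), and the apelin receptor Aplnr (1.47, SE 0.35), and 2 lower, Ramp2 (-1.08, SE 0.31) and Egfl7. Between P and A, Robo4 (2.45, SE 0.36) and Aplnr (1.39, SE 0.33) were the 2 higher of 16, and in limma 0 of 8 factors were called, with 2 at an unadjusted p under 0.05. The VEGF list gave 0 calls in limma between PP and A, with 3 genes at an unadjusted p under 0.05, the haematopoietic list 0 with 0, and the blood markers 0 with 1.

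St5 and E7.5 PP, the caudal regions of successive days, were then compared to ask what changed with stage. Cdh5 ILMN_2866951 passed detection on both St5 arrays (5.97 and 6.41) and on neither PP array (4.57 and 4.67), and was the 1 member probe called, at least 1.46-fold higher (adjusted p = 0.036), where 0.474% of all tested probes were called higher. The call was lost when either St5 array or either PP array was left out. The fitted log2 differences were then 2.38 and 1.94 without St5 replicates 1 and 2, and 2.11 and 2.21 without PP replicates 1 and 2. With all arrays the fitted value was 2.16. These values are approximate, since PP was undetected. Cdh5 ILMN_2771550 differed in the same direction, at 7.25 and 7.67 against 5.64 and 5.40, and was not called (adjusted p = 0.336).

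None of the factors was called in the same comparison, which does not show equal levels. Both St5 arrays lay above both PP arrays for Etsrp71, Ets1, Lmo2, Gata2 and Hhex. Etsrp71 differed by 1.11 (95% confidence interval 0.01 to 2.21, adjusted p = 0.416), Ets1 by 0.82, Gata2 by 0.83 (-1.51 to 3.17) and Tal1 by -0.22 (-1.48 to 1.04). Flt1 gave -1.84 (adjusted p = 0.268) in the model although its mean level was 8.97 in St5 and 8.35 in PP, and its sign turned without the batch term (0.63). St5 and PP lie in different batches, and batch 1, which holds St5, is linked to the others by NSB replicate 3 alone. Among the lists, 2 of 8 endothelial factors, Sox18 (2.78, SE 0.60, adjusted p = 0.0225) and Fli1 (at least 1.12-fold, adjusted p = 0.0077), 1 of 16 surface genes, Plvap (2.99, SE 0.69, adjusted p = 0.0328), and Tbx4, of lateral mesoderm, were higher in St5. The visceral endoderm markers Apob (-5.76, SE 0.66) and Apoa2 (at least 25.9-fold) were lower, 2 of 7 in all, and in limma the blood and haematopoietic lists had 0 calls, with 1 and 0 genes at an unadjusted p under 0.05.

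Within the rest of the E8.5 region, the node-side tissues RN and NSB were compared with CLE and St1, to ask whether the node side differs in these genes. In the paper both NSB and CLE hold neuromesodermal progenitors, so the comparison does not separate progenitor types. In limma 0 member probes were called, with 2 at an unadjusted p under 0.05, where 3.21% of all tested probes were called in either direction. Lmo2 gave -0.82 (SE 0.30, adjusted p = 0.218) and Ets1 0.72 (SE 0.30, adjusted p = 0.373). Of 8 endothelial factors 2 were higher at the node side, Sox18 (at least 2.13-fold) and Foxc2, detected on 1 of the CLE and St1 arrays, and Elk3 was lower (-0.80, SE 0.18), with a median of 0.11. Of 16 surface genes 2 were higher, Aplnr (1.77, SE 0.27) and Ramp2 (1.27, SE 0.24), with a median of 0.12, and Vegfa was the 1 higher of 6 VEGF genes (1.37, SE 0.30). Blood markers were higher for 2 of 6, definitive endoderm for 4 of 6 and notochord for 4 of 5 markers, 1 of 9 lateral and extraembryonic mesoderm and 1 of 5 surface ectoderm markers were lower, and their part was not tested.

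In the tail bud, P-CNH and CNH were compared at 3 stages to ask whether mesoderm-fated tissue differs from the progenitor-bearing hinge. Over the mean of E9.5, E10.5 and E11.5, limma called 0 member probes and 0 had an unadjusted p under 0.05, where 0.599% of all tested probes were called in either direction. Each stage alone gave 0 calls in limma, with 1, 3 and 0 probes at an unadjusted p under 0.05. Over all 21712 tested probes 37, 69 and 35 were called at E9.5, E10.5 and E11.5, so few calls were not particular to the members. The largest difference at E9.5 was Ets1 (10.18 and 9.36 in P-CNH, 9.12 and 9.14 in CNH, a difference of 1.05, adjusted p = 0.758). Over the lists, 1 of 16 endothelial surface genes, 4 of 6 definitive endoderm and 3 of 5 notochord markers were lower in P-CNH. The mean joins unlike differences of the 6 blood markers, with medians of -2.22 at E9.5 and 0.79 at E11.5. In limma 0 of them were called at either stage, with 5 and 0 at an unadjusted p under 0.05. For the members, the change of the difference between E9.5 and E11.5 was tested as an interaction. It gave 0 calls in limma, with 1 probe at an unadjusted p under 0.05, where 0.0276% of all tested probes were called. The blood markers gave 0 calls in limma there too, with 6 of 6 at an unadjusted p under 0.05 (median 2.94).

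E10.5 was also fitted within its own batch. All E10.5 arrays belong to batch 1, and among the 12 arrays of that batch 3 of the 14 member probes were called between P-CNH and CNH, where 2.58% of all tested probes were called in either direction. Flt1, at 5.68 and 5.90 in P-CNH and 7.12 and 7.49 in CNH, was lower by a difference of -1.52 (SE 0.16, adjusted p = 0.000382). Cdh5 ILMN_2771550, at 5.55 and 5.92 against 6.84 and 7.22, was lower (-1.30, SE 0.22, adjusted p = 0.00812). ILMN_2866951 was also called lower (adjusted p = 0.0103), but it was detected on 1 CNH array (5.70) and on no P-CNH array, so no size is given. In the model of all 36 arrays the estimates were the same and the adjusted p-values were 0.432, 0.336 and 1. At E10.5 that model gave 1 member call with cyclic loess (101 over all tested probes) and 1 with the BeadChip as a block (99). Without the 4 arrays of fewest detected probes it gave 3 (173). The transcription factors detected at E10.5 were not called in the batch either. Etsrp71 was at 0.62 (adjusted p = 0.183), Lmo2 at 0.20, Ets1 at 0.12 and Hhex at -0.07. Tal1 and Gata2 were undetected on every E10.5 array, so they give no information on a difference there.

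Endothelial genes accompanied Flt1 and Cdh5 in that batch. Of the surface and junction genes, 9 of 16 were lower in P-CNH than in CNH (median -0.95), including Emcn (-2.30, SE 0.25, adjusted p = 0.000459), Plvap (-1.83, SE 0.20, adjusted p = 0.000444), Cldn5 (-1.59, SE 0.26, adjusted p = 0.00698) and Pecam1 (at least 1.37-fold, adjusted p = 0.0068). Of the endothelial factors 4 of 8 were lower (median -0.67): Foxc1, Foxc2, Sox7 and Sox18. Nrp1 was lower (-1.01, SE 0.13, adjusted p = 0.00144), the only call among 6 VEGF genes. In the model of all 36 arrays 1 of the 16 surface genes was lower, and in limma 0 of the 8 factors and 0 of the 6 VEGF genes were called, with 4 and 1 at an unadjusted p under 0.05. In limma 0 of 6 haematopoietic factors, 0 of 6 blood markers (median -0.40) and 0 of 4 macrophage markers were called, with 0, 0 and 1 at an unadjusted p under 0.05. The summed intensity of the blood markers was 29300 and 31100 in CNH and 24700 and 21100 in P-CNH, with Hbb-y the brightest. Notochord (4 of 5) and definitive endoderm markers (5 of 6) were lower in P-CNH, with Shh at least 34.9-fold lower. Of 9 lateral and extraembryonic mesoderm markers 1 was higher, Msx1, and 1 lower, Tbx3. The part of these tissues in the members' difference was not tested.

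Whether E10.5 differs from E11.5 in this respect was tested as an interaction chosen after the data were seen. Flt1 gave 2.25 (95% confidence interval 0.94 to 3.56) and Cdh5 ILMN_2771550 1.87, both with an adjusted p of 1. In limma 0 member probes were called, with 3 at an unadjusted p under 0.05. Over all 21712 tested probes 1 was called, and 1.49% had an unadjusted p under 0.05. A difference between these stages is therefore not shown, and E10.5 and batch 1 cannot be told apart.

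**Figure D4:**
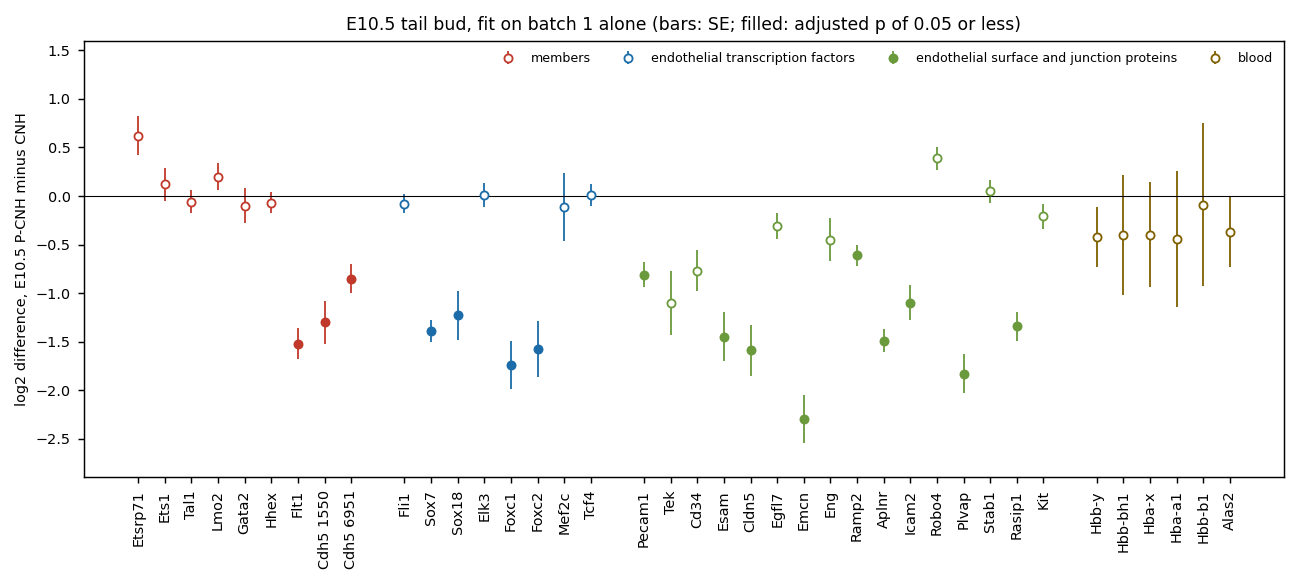
Log2 difference between P-CNH and CNH at E10.5 within batch 1, with SE bars, for the members, the endothelial lists and blood markers, filled where the adjusted p is at most 0.05. Flt1 (-1.52) and Cdh5 ILMN_2771550 (-1.30) lie with Emcn (-2.30) and Plvap (-1.83). No transcription factor member was called, and Tal1 and Gata2 were undetected on every E10.5 array.

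The hinge is taken to be the successor of NSB in the tail, and CNH of E9.5 to E11.5 was compared with NSB for that reason. Ets1, Lmo2 and 1 of the Cdh5 probes were higher in CNH, 3 member probes, where 4.85% of all tested probes were called higher. Ets1 was between 8.21 and 9.42 in the 7 CNH arrays and at 6.06, 6.13 and 6.15 in NSB, a difference of 2.45 (SE 0.33, adjusted p = 1.25e-05). Lmo2 was between 12.02 and 13.65 against 10.92, 10.77 and 10.79, a difference of 2.00 (SE 0.33, adjusted p = 0.000168). The CNH and NSB arrays did not overlap for either gene. Cdh5 ILMN_2771550 was called higher (adjusted p = 0.0169), but it was undetected in NSB and on 5 of the 7 CNH arrays. Its arrays overlapped, and no size is given. Its detected CNH arrays were those of E10.5, and its call was lost with an offset of 100, with cyclic loess and within batch 3. The other Cdh5 probe gave -0.02 (adjusted p = 0.985). Within batch 1, where E10.5 CNH meets NSB replicates 1 and 2, there were 5 member calls among 4282 over the 21712 tested probes. Within batch 3, with 1 array on either side, limma called 0 of all tested probes.

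Blood markers rose over the same interval, 4 of 6 (median 3.26), with Hbb-y at least 165-fold higher (adjusted p = 2.92e-12) and the brightest of the list at E9.5 and E10.5. Their summed intensity was between 6300 and 46100 in these CNH arrays and at 3940, 1740 and 1180 in NSB. Of 8 endothelial factors 3 were higher, Elk3 (2.31, SE 0.20), Mef2c and Tcf4 (0.87, SE 0.22). Of 16 surface genes Emcn and Pecam1 were higher and Aplnr lower (-1.29, SE 0.31). Emcn and Pecam1 were undetected in NSB and detected on only 4 and 3 of the CNH arrays, so no size is given for them. Vegfc was higher (1.45, SE 0.29), 0 of 6 haematopoietic factors were called in limma (3 at an unadjusted p under 0.05), and of the macrophage markers 1 of 4, C1qb, was. Lower in CNH were 4 of 6 definitive endoderm (median -1.89), 2 of 5 notochord (median -1.14), 2 of 7 visceral endoderm, 1 of 5 surface ectoderm and 1 of 9 lateral and extraembryonic mesoderm markers. The part of blood, vessel or these other cells in the members' levels was not tested.

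At the end of axis elongation Etsrp71 declined. It was at 9.03 and 9.58 in E12.5 CNH and 7.81 and 8.51 in E13.5 CNH, against 10.32 and 10.22 at E9.5 and 9.43 and 10.08 at E10.5. The late stages were lower by a difference of -1.60 (SE 0.31, adjusted p = 0.00231), the 1 member called lower, where 1.99% of all tested probes were, and the arrays of E12.5 and E10.5 overlapped. Without E13.5 CNH replicate 2, the array with fewest detected probes, 4 member probes were called, among 1478 of all tested probes against 1233 with it. Of 8 endothelial factors 1 was higher, and of 16 surface genes 1 was higher and 2 lower. Macrophage markers were higher for 4 of 4 (C1qb at least 7.59-fold, summed intensity 571 to 1850 late against 103 to 142 early) and surface ectoderm for 3 of 5 (Krt14 at least 15.3-fold), while Hbb-bh1 was lower (-3.90, SE 0.71). Of 6 definitive endoderm markers 1 was higher and 2 lower, and of 9 lateral and extraembryonic mesoderm markers 1 was higher and 1 lower. Ptprc and Fcer1g, of leukocytes, were detected nowhere, and the part of these tissues was not tested.

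E13.5 CNH was also set against the mean of CNH from E9.5 to E12.5, a comparison chosen after the data were seen. Cdh5 ILMN_2771550, at 8.38 and 6.78, was higher by 1.69 (SE 0.31, adjusted p = 0.000754), ILMN_2866951, at 7.68 and 6.12, by 1.73 (SE 0.27, adjusted p = 0.00013) and Flt1, at 7.83 and 4.96, by 1.31 (SE 0.38, adjusted p = 0.0219). These 3 probes compare with 7.71% of all tested probes called higher. Etsrp71 was the 1 called lower (-1.78, SE 0.28, adjusted p = 0.000156), where 7.89% of all tested probes were. Flt1 and Cdh5 were detected on replicate 1 only. Without that array Flt1 gave 0.05 and the Cdh5 probes 0.93 and 0.95. Of the endothelial surface genes 9 of 16 were higher, with Icam2 (2.90, SE 0.41) and Pecam1 (2.03, SE 0.30) among them, and 1 lower. Of the endothelial factors 4 of 8 were higher. Surface ectoderm markers were higher for 3 of 5 (median 2.06), with Cldn4 at 2.06 (SE 0.52), and macrophage markers for 2 of 4 (median 0.75). Of 5 notochord markers 2 were lower, and of 6 definitive endoderm markers 2 were lower and 1 higher. Lateral and extraembryonic mesoderm gave 2 higher and 1 lower of 9, and blood 1 and 1 of 6. The part of these tissues in the members' levels was not tested.

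Finally, St5 was compared with P-CNH averaged over E9.5, E10.5 and E11.5, to ask whether the caudal mesoderm-forming tissue of the tail resembles that of the streak in these genes. Most members differed. In all, 7 member probes, of 6 genes, were higher in St5, where 2.57% of all tested probes were, and Lmo2 was the 1 lower, where 2.39% were. Etsrp71, between 9.30 and 10.76 in the 6 P-CNH arrays, was 1.87 higher in St5 (SE 0.39, adjusted p = 0.00397). Gata2 was higher (adjusted p = 0.00561), but it was detected on 1 of the 6 P-CNH arrays and no size is given, and Tal1, detected on none, was at least 2.07-fold higher (adjusted p = 0.00324). Hhex, between 6.70 and 7.10 in P-CNH, was higher by 1.39 (SE 0.34, adjusted p = 0.015) and Flt1 by 2.29 (SE 0.52, adjusted p = 0.00873). Flt1 was detected on 2 of the 6 P-CNH arrays, with means of 8.97 in St5 and 5.16 in P-CNH. Its size is approximate and rests partly on the batch term. Cdh5 ILMN_2771550 was higher by 1.53 (SE 0.43, adjusted p = 0.0382), and the other Cdh5 probe at least 1.2-fold (adjusted p = 0.00311). ILMN_2771550 was also detected on 2 of the 6 P-CNH arrays, so its size is approximate. Its call was lost when any of 5 of the 8 arrays was left out and in 3 of 11 alternatives.

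Among the tested members, Lmo2 and Ets1 were the ones not called higher there. Lmo2, between 11.84 and 13.81 in P-CNH, was lower in St5 (-1.89, SE 0.45, adjusted p = 0.012), and Ets1, between 7.11 and 10.18, overlapped St5 and was not called (0.96, SE 0.45, adjusted p = 0.349). Leaving out St5 replicate 1 left 5 calls and leaving out replicate 2 left 4, among 598 and 590 over all tested probes, and Hhex and Lmo2 lost theirs without either array. Flt1 lost its call without St5 replicate 2 (2.20). Of 8 endothelial factors 3 were higher in St5, among them Sox7 (at least 5.57-fold) and Sox18 (3.39, SE 0.44), and 2 were lower, Tcf4 (-1.42, SE 0.29) and Elk3 (-1.08, SE 0.28), with a list median of -0.12. Of 16 surface genes 6 were higher, among them Plvap (3.50, SE 0.50) and Rasip1 (2.96, SE 0.48), and 0 lower. Nrp1 was higher too (2.75, SE 0.40), as were 8 of 9 lateral and extraembryonic mesoderm, 2 of 7 visceral endoderm, 3 of 6 definitive endoderm and 1 of 5 notochord markers. Blood markers were lower for 2 of 6, with Hbb-y at least 97.4-fold lower. The part of these tissues was not tested.

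The batch-adjusted levels of the 16 regions also give how alike the members' patterns were, as a description without a test, since regions share arrays' batches and neighbouring stages. Tal1 and Gata2 had r = 0.90, Tal1 and Flt1 0.85, Gata2 and Flt1 0.81, and Tal1 and Hhex 0.77. From region means without batch adjustment, tried after the values were seen, these were 0.88, 0.79, 0.75 and 0.84. The adjustment raised Flt1 in CLE, where it was undetected, from a mean of 4.84 to 7.07, so the patterns of Flt1 rest partly on it. Etsrp71 followed Tal1 at 0.65 and Cdh5 at -0.08. Ets1 was most like Cdh5 among the members, at 0.66. Lmo2 had negative r of moderate size with Gata2 (-0.47), Flt1 (-0.41) and Tal1 (-0.40).

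Tal1 was undetected in 12 of the 16 regions, and Gata2, Flt1 and Cdh5 in several, so their r values rest on few regions and on background levels in the others. Over all genes with a range of at least 2 across regions, those most like each member are named with r over the same 16 batch-adjusted levels. For Cdh5 they were the endothelial genes Pecam1 (0.941), Icam2 (0.937) and Mmrn2 (0.92), and for Gata2 they were its paralogue Gata3 (0.944), Alpk3 (0.924) and Hand1, of lateral mesoderm (0.908). Ets1 was most like 1110062M06Rik (0.901), the VEGF co-receptor Nrp2 (0.888) and Ppic (0.859). Flt1 was most like Cobll1 (0.941), Dab2 (0.911) and Sec14l4 (0.899), and Tal1 like Polg (0.95), Fam110c (0.934) and Prdm6 (0.931). Lmo2 was most like Dusp6, a phosphatase induced by fibroblast growth factor signalling (0.971), Cd83 (0.967) and Peli3 (0.965). Etsrp71 had less similar partners, with Cmtm6 (0.856), Epb4.1l4b (0.834) and Hdgf (0.832), and Hhex was most like Kcnab1 (0.889), Aqp5 (0.865) and Mip (0.808).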

How the data were processed

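The authors deposited average bead intensity values on the linear scale, without normalisation, and a detection p-value for each probe on each Illumina MouseWG-6 array. The submitters' own processing with lumi was not applied to these values. The intensity table was background-corrected from the detection p-values, quantile-normalised and put on the log2 scale with an offset of 16 (neqc). Probes detected (p-value below 0.01) on at least 1 of 36 arrays were kept, 21712 of 45281. The comparisons came from 1 fit in limma 3.58.1 (R 4.3.3) with region and batch as terms and 18 residual degrees of freedom, two-sided, with p-values adjusted over all tested probes of a comparison. The E10.5 tail bud was also fitted within batch 1 alone. A probe was called at a fold of 1.5 or more with an adjusted p (Benjamini-Hochberg) no higher than 0.05. The procedure was tested on simulated data.

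The p-values measure the spread between these pooled samples. Members and lists were chosen with earlier results of these data known. Each gene is read from its brightest probe, with other probes given where detected. The lists cover VEGF ligands and other receptors, endothelial transcription factors, haematopoietic factors and partners, endothelial surface and junction proteins, lateral and extraembryonic mesoderm, blood, macrophage, visceral endoderm, definitive endoderm, surface ectoderm and notochord. The partner Tcf3 was matched to the symbol Tcfe2a after the table was seen. Up to 3 genes per list and comparison were named, those with the largest called difference whose arrays did not overlap between groups. Otx2, Hesx1, Mef2c, C1qb and other called genes named beyond this rule, among them those within batch 1 at E10.5, were chosen after their values were seen. The 3 genes most like each member were taken by Pearson correlation of batch-adjusted levels over 16 regions. Alternatives covered background correction, offset, normalisation, the batch term, a BeadChip block, a replicate block, the filter, single batches and leaving out arrays.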

Additional observations from a re-analysis of the deposited data

How the results depend on the processing

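The 30 member differences called, leaving aside those of St5 against single E8.5 regions, were refitted 607 times under other settings. In 561 refits the direction and the call held, in 46 the direction held without the call, and in 0 the direction turned. The count of 8 probes for St5 against the other E8.5 regions was 8 or 9 under every setting run, and 8 with any of 11 arrays left out, while NSB replicate 3 could not be. The 4 arrays with the fewest detected probes (10814 to 12289) were left out together as a setting chosen after seeing the data, as were the refits of PP against P, and of St5 against PP, without each A array.

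Other counts changed, and the cause was not tested. Shifts by 1 probe gave 2 to 4 for PP against A and for CNH against NSB, and 7 to 9 for St5 against P-CNH. With batch removed before the fit, PP against P gave 2 calls instead of 0 (634 over all tested probes instead of 172), St5 against PP 4 instead of 1 (4154 instead of 223), RN and NSB against CLE and St1 1 instead of 0 (1113 instead of 696), and late against early CNH 4 instead of 1 (3214 instead of 1233), so the rise was not particular to the members. Without a batch term St5 against PP and late against early CNH each gave 2 (477 and 2922 over all). With the BeadChip as a random block (consensus correlation 0.483) St5 against PP gave 2 (359), as did RN and NSB against CLE and St1 (887). St5 against PP gave 0 with an offset of 100 (309), 2 with cyclic loess (409) and 2 without the filter (669). Without the 4 arrays of fewest detected probes, PP against P gave 1 (465), St5 against PP 2 (2273), RN and NSB against CLE and St1 1 (2268), P-CNH against CNH 1 (287) and late against early CNH 4 (2994). St5 against CLE (6, with 321 over all tested probes) ran from 3 with an offset of 100 (336) to 8 without a batch term (2065). E13.5 against earlier CNH (4, with 3386 over all) gave 2 with cyclic loess (1214) and 0 within batch 3 (0).

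Within batch 3, limma called 0 of all 21712 tested probes in each comparison, so the 0 member calls there for PP against A and CNH against NSB (3 each with all arrays) are not particular to the members. Within batch 2, P against A gave 1 instead of 2 (380 over all tested probes). Late against early CNH gave 5 there (2865), but batch 2 holds no E10.5 CNH and only 1 array each of E12.5 and E13.5. Within batch 1, RN and NSB against St1 gave 2 (1334), P-CNH against CNH 3 (560) and CNH against NSB 5 (4282). With the replicate block beside batch, St5 against PP gave 0 (366) and St5 against P-CNH 5 instead of 8 (960 instead of 1077), and Hhex between PP and A was not called. Over 15 pairs of batch 1 regions, the correlation of differences between replicates 1 and 2 ran from -0.08 to 0.39, with a median of 0.18, and was over 0.1 in 8. The batch 1 samples also held equal counts of pieces, 45 at E8.5 and 17 at E10.5. The labels do not say whether samples with the same replicate number share embryos, and these values cannot decide it. The main fit did not pair them. In batch 1 the replicate number also marks the BeadChip, and with the BeadChip as a block St5 against P-CNH kept 8. The fits within batch 1 alone held no BeadChip term.

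The differences that turned were not called with all arrays. Tal1 and Gata2 between PP and A were -0.16 and -0.20 within batch 3, and Flt1 between St5 and PP was 0.63 without a batch term and 0.09 with the BeadChip block, against -1.84 with all arrays, which was called with batch removed before the fit and without the 4 arrays of fewest detected probes.

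With each array left out in turn, the counts ran from 0 to 2 for PP against P, 2 to 5 for PP against A, 1 to 2 for P against A, 0 to 1 for St5 against PP, 1 to 4 for late against early CNH, 4 to 9 for St5 against P-CNH, and 0 to 1 for the P-CNH change from E9.5 to E11.5 (1 without E11.5 P-CNH replicate 2, with 325 over all tested probes instead of 6). They stayed at 0 for P-CNH against CNH and for RN and NSB against CLE and St1, and at 3 for CNH against NSB. A region left with 1 array is assumed to vary like the other regions. Without NSB replicate 3 no value exists for comparisons that cross batch 1. Signal over background limits Tal1, Gata2, Flt1 and Cdh5, which were undetected in many regions, and leaves Kdr unmeasured. Most regions had 2 arrays, pooled tissue holds several cell types, and no protein was measured.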

Other observations

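The VEGF ligands were measured in the same arrays. Vegfb was at log2 intensity 10.93 and 10.99 in St5 and at 10.59 and 10.87 in E7.5 PP. The summed intensity of the 6 tested genes of the list was 4650 and 5540 in St5, 4090 and 3980 in PP and 3960 and 3670 in RN. Macrophage markers, undetected on every earlier array, were first detected at E11.5, where C1qb was at 8.53, 8.31 and 7.84 in CNH and 7.03 and 8.15 in P-CNH.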
